A study of Rattus norvegicus with 12 samples.

Results

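Among the 641 mature miRNAs measured in the aorta of female rats, 11 belonged to the miR-99/100 and miR-125 families. They were every row of the deposited table named miR-99a, miR-99b, miR-100, miR-125a or miR-125b, with either arm of the hairpin and any numbered copy. Of these, 9 had at least 1 rpm, reads per 1000000 reads of the library total, in at least 6 of the 12 libraries and were tested, as were 303 rows of the whole table. The rats were of the SHR strain, an inbred line that develops high blood pressure. The label EWH marked 6 treated samples, and 6 control samples came from rats given saline. The series title names peptides from egg white and blood pressure, but the labels do not spell out EWH and give no dose, duration or age. Whether the samples of a group were separate animals is not stated, so a p-value here reflects only how these samples varied, and that variation may be technical.

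The miR-99/100 and miR-125 families are ancient miRNAs that animals carry next to let-7 in shared primary transcripts. A miRNA hairpin is cut into a 5p and a 3p arm. Usually 1 of the arms is loaded into Argonaute and pairs with target mRNAs through its seed, bases 2 to 8, while the other arm is mostly degraded. The miR-125 family is the vertebrate counterpart of lin-4, which with let-7 times development in Caenorhabditis elegans. Members of the miR-99/100 family are known in human and mouse cells to repress the kinase mTOR, and miR-125a-5p and miR-125b-5p are known to lower endothelin-1, a vasoconstrictor peptide, in cultured rat endothelial cells. In the RefSeq annotation of the rat assembly GRCr8 the hairpins lie in 3 clusters of the same order. Mir99a, Mirlet7c1 and Mir125b2 lie within a long non-coding RNA gene. Mir100, Mirlet7a-2 and Mir125b1 lie within the long non-coding gene Mir100hgl, and Mir99b, Mirlet7e and Mir125a lie within the gene Spaca6. The submitters' processing notes name another build, rn6, so no positions are given.

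RefSeq (GRCr8) gave a mature sequence for 10 of the 11 members, and the seed is in capitals below because it defines the family. The table gave none for miR-99a-5p. The 5p arms fell into 2 seed groups, written 5′ to 3′.
miR-100-5p: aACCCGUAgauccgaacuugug
miR-99b-5p: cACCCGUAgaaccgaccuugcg
miR-125a-5p: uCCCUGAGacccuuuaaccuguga
miR-125b-5p: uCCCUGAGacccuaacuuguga
Counting from 1 at the 5′ end, with the base of miR-99b-5p first and that of miR-100-5p last, the substitutions were C1A, A11U, C16A and C21U, none of them in the seed. The first 13 bases of miR-125a-5p and miR-125b-5p were identical. No other listed miRNA with a RefSeq sequence shared the seed of miR-100-5p and miR-99b-5p, and 1 other, miR-351-5p, shared that of the miR-125 5p arms.

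The hairpins Mir125b1 and Mir125b2 yield the same 5p arm, so reads of miR-125b-5p come from either gene, whereas their 3p arms differ and tell the genes apart. These 3p arms are shown because only 1 of them differed between the groups at an unadjusted p under 0.05.
miR-125b-1-3p: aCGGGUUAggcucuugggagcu
miR-125b-2-3p: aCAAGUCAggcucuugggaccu
With the base of miR-125b-1-3p first, the substitutions were G3A, G4A, U7C and G20C, of which 3 lie in the seed. In the Mir125b1 hairpin the 3p arm, in capitals, follows the loop.
Mir125b1 hairpin: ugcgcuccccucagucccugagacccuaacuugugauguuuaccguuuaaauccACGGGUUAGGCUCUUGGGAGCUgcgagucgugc

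Each library rested on 23887799 to 24772944 reads, of which 76.4% to 80.6% fell in listed miRNAs, and 3 reads, the most that a listed 0 allows by counting error alone, were worth 0.121 to 0.126 rpm. The label aorta was checked against smooth muscle markers, of which miR-143 and miR-145 summed to 331968 to 428677 rpm in EWH libraries and 347013 to 426858 rpm in control libraries. The endothelial marker miR-126a summed to 4264 to 6913 rpm and 3290 to 12305 rpm in those groups, with control 1 highest. Libraries EWH 3 and EWH 4 stood apart on the first principal component, which held 46.3% of the variance, at 11.97 and 16.2 against −7.94 to 4.94 elsewhere. Markers of neurons and glia, with 13 rows listed and 6 tested, summed to 124 to 1139 rpm in EWH libraries, where EWH 3 and EWH 4 were highest, and 82.6 to 206 rpm in control libraries. MiRNAs of the Dlk1-Dio3 region, with 19 rows listed and 11 tested, summed to 154 to 1602 rpm, again highest in EWH 3 and EWH 4, and 78.6 to 203 rpm in control libraries. Markers of striated muscle, with 9 rows listed and 5 tested, summed to 713, 927 and 1439 rpm (lowest, median and highest) in EWH libraries. In control libraries they summed to 429, 554 and 1368 rpm, and 2 of the 5 tested rows had a higher fitted level in EWH libraries. Whether any of these markers contribute to the results below was not tested.

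The families were among the most abundant miRNAs of the aorta. All 11 rows together made up 7.48% ± 0.877 of listed reads in EWH libraries and 7.22% ± 0.492 in control libraries (SD, n = 6 each). An rpm value counts reads of a whole mature miRNA and holds no length term, and adaptor ligation can favour some sequences, so an order between miRNAs is an order of reads. Over the 12 libraries rno-miR-99a-5p averaged 36693 rpm and ranked 3 of 641. It was followed by rno-miR-125a-5p at 6541 rpm, rno-miR-125b-5p at 6531 rpm, rno-miR-100-5p at 5242 rpm and rno-miR-99b-5p at 2492 rpm, with ranks of 14, 15, 19 and 28. The order was the same in all 12 libraries apart from 2 steps. MiR-125a-5p exceeded miR-125b-5p in 6 libraries, 5 of them EWH, and miR-125b-5p exceeded miR-100-5p in 11 libraries, all but control 1.

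The 3p arms were scarce. The row rno-miR-125b-1-3p averaged 197 rpm, miR-125b-2-3p 98.0 rpm, miR-99b-3p 34.3 rpm and miR-125a-3p 20.4 rpm over the 12 libraries. MiR-99a-3p, from the hairpin with the most abundant 5p arm, lay between 0.0807 and 0.285 rpm in EWH libraries and between 0.0823 and 0.368 rpm in control libraries, at 2 to 9 reads. MiR-100-3p was listed at 0 in 10 libraries, with 1 read in EWH 4 and 3 reads in control 5. These 2 rows failed the filter, and at this depth no difference between the groups was detectable for them.

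**Figure D1:**
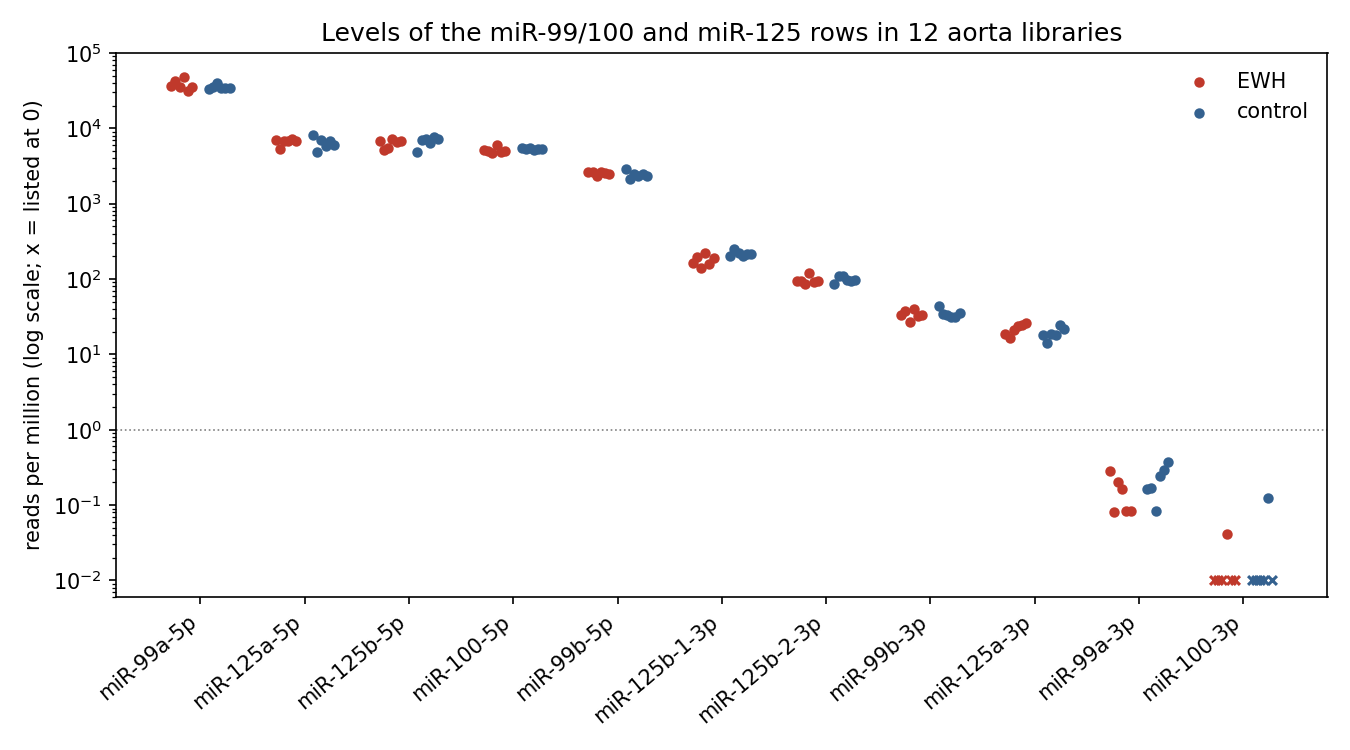
Level of each miR-99/100 and miR-125 row by library, in rpm on a log axis, with EWH libraries left of control libraries for each miRNA points for single libraries, crosses for values listed at 0 and a dotted line at the filter of 1 rpm. The 5p arms lie between 2113 and 48439 rpm and the tested 3p arms between 14.03 and 249.9 rpm, and for every tested row the groups overlap.

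Some members were also among the most even miRNAs of the table. The coefficient of variation of miR-100-5p over the 12 libraries was 6.60%, the lowest of the 303 tested rows. That of miR-99b-5p was 8.28%, which ranked 3. The other tested members lay between 10.7% and 17.9%, against a median of 28.5% over all tested rows and of 15.2% over the 34 rows averaging at least 1000 rpm.

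With the groups compared row by row, none of the 9 tested members passed an adjusted p of 0.05, and the differences of the 5p arms were small beside the spread between libraries. Limma with Benjamini-Hochberg adjustment over all 303 rows called 0 members, and 0% of all tested rows. At an unadjusted p under 0.05 it gave 1 member, miR-125b-1-3p, where 23.1% of all rows passed. EdgeR on the recovered reads called 0 members at an adjusted p under 0.05, where it called 13.2% of all rows, and 0 at an unadjusted p under 0.05, where 26.1% passed. DESeq2 called 0 members at either threshold, where 20.8% and 29% of all rows passed. In EWH libraries 4 members had a higher and 5 a lower fitted level, with a median log2 fold change of −0.03, against 121 higher and 182 lower (60.1%) and a median of −0.06 over all tested rows. In whole aorta, fewer cells of a type and less RNA per cell cannot be told apart.

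**Figure D2:**
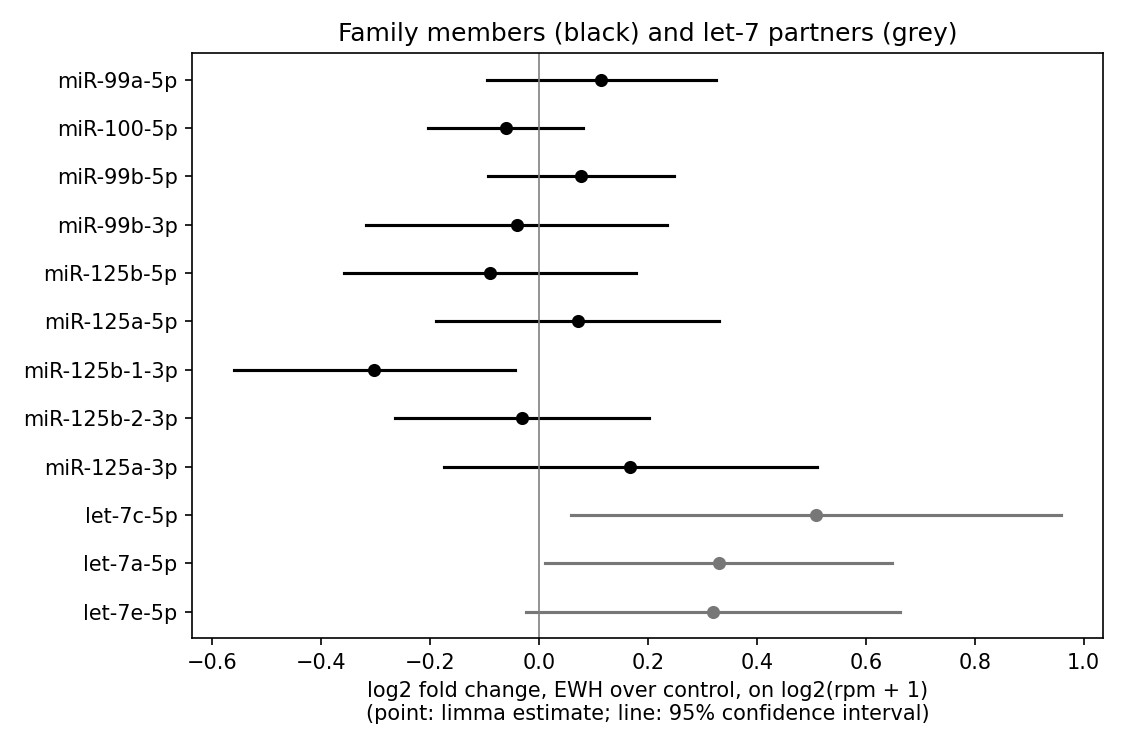
Log2 fold change, EWH over control, of the 9 tested members (black) and 3 let-7 partners (grey) with 95% confidence intervals from limma on log2(rpm + 1), where the vertical line at 0 marks no difference. The interval of miR-125b-1-3p, from −0.56 to −0.04, is the only one among the members that does not cross 0 before adjustment.

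In the miR-99/100 family, miR-99a-5p, whose hairpin lies beside let-7c, was at 31510, 35922 and 48439 rpm (lowest, median and highest) in EWH libraries and at 32862, 34216 and 40391 rpm in control libraries. The highest levels were those of EWH 4 and EWH 2, and the lowest was that of EWH 5, so the EWH values spread on either side of the control values. The log2 fold change was 0.11 ± 0.10 (SE), with an adjusted p of 0.527 in limma. The interval of the difference ran from −0.10 to 0.32. Without EWH 4 the log2 fold change was 0.0433, and without EWH 3 and EWH 4 it was 0.0461.

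MiR-100-5p, whose hairpin lies beside let-7a-2, was at 4726, 5021 and 6070 rpm in EWH libraries and at 5232, 5307 and 5505 rpm in control libraries. In 5 of 6 EWH libraries it lay below every control library, while in EWH 4 it lay above all of them. Of the 303 tested rows, 3.63% had at least 5 of 6 EWH libraries below every control library. The averages were 5139 ± 475 rpm in EWH libraries and 5344 ± 109 rpm in control libraries (SD, n = 6 each). The log2 fold change was −0.06 ± 0.07 (SE), with an adjusted p of 0.612 in limma and an interval from −0.20 to 0.08. Without EWH 4 it was −0.11, with an adjusted p of 0.235 in limma, without EWH 3 it was −0.0379, and without both it was −0.0933.

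MiR-99b-5p, from the cluster in Spaca6, was at 2336, 2591 and 2670 rpm in EWH libraries and at 2113, 2391 and 2875 rpm in control libraries. All 6 EWH values lay within the range of the control values, between control 2 at the low end and control 1 at the high end. Its log2 fold change was 0.08 ± 0.08 (SE), with an adjusted p of 0.590 in limma. Without control 1 it was 0.13, and without control 2 it was 0.0385. The 3 arms together summed to 45973 ± 6498 rpm in EWH libraries and 42881 ± 2700 rpm in control libraries (SD, n = 6 each). MiR-99a-5p made up 83.1% ± 1.44 of that sum in EWH libraries and 81.8% ± 1.31 in control libraries. MiR-100-5p made up 11.3% ± 0.847 and 12.5% ± 0.678 of it in those groups (SD, n = 6 each).

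In the miR-125 family, miR-125a-5p was at 5290, 6850 and 7307 rpm in EWH libraries and at 4869, 6346 and 8054 rpm in control libraries. All EWH values lay within the control range, and EWH 2 was apart from the other EWH libraries at the low end. Its log2 fold change was 0.07 ± 0.12 (SE), with an adjusted p of 0.744 in limma and an interval from −0.19 to 0.33. Without EWH 2 or without control 1 it was 0.14, without EWH 5 it was 0.0437, and without control 2 it was −0.00431.

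MiR-125b-5p, the arm shared by Mir125b1 and Mir125b2, was at 5186, 6663 and 7116 rpm in EWH libraries and at 4831, 7095 and 7781 rpm in control libraries. The lowest value of all was that of control 1, while the other 5 control libraries held at least 6375 rpm. The log2 fold change was −0.09 ± 0.12 (SE), with an adjusted p of 0.693 in limma and an interval from −0.36 to 0.18. Without control 1 the log2 fold change was −0.18, with an adjusted p of 0.247 in limma. It was −0.0359 without EWH 2, −0.0486 without EWH 3 and −0.0463 without control 5. Of the miR-125 5p reads, miR-125b-5p made up 48.5% ± 2.32 in EWH libraries and 51.4% ± 7.42 in control libraries (SD, n = 6 each), with control 1 lowest at 37.5%.

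A second row of the table bears on the level of miR-125b-5p. In RefSeq, Mir3588 lies on the strand opposite Mir125b2, and its mature miRNA is the exact reverse complement of miR-125b-5p over 22 bases. It is shown with its seed in capitals.
miR-3588: uCACAAGUuagggucucaggga
The strand setting of the counting is not given in the sources used here, and whether reads of miR-3588 and miR-125b-5p were mixed was not tested. The shares held by other complementary rows varied widely. MiR-210-3p held 37.5% to 59.0% of its sum with miR-3574 in EWH libraries and 39.2% to 53.0% in control libraries. That sum was low, averaging 4.49 rpm in EWH libraries and 5.63 rpm in control libraries. MiR-3596b held 0.00411% to 0.00978% of its sum with let-7d-5p in EWH libraries and 0.00225% to 0.00862% in control libraries. MiR-3570 held 28.8% to 36.5% of its sum with miR-181a-1-3p in EWH libraries and 27.0% to 34.5% in control libraries. MiR-3596a held 18.5% to 24.0% of its sum with let-7a-5p in EWH libraries and 16.7% to 21.5% in control libraries. MiR-3588 was at 1547, 2159 and 2264 rpm in EWH libraries and at 2091, 2389 and 4459 rpm in control libraries. Control 1, the library lowest in miR-125b-5p, was highest in miR-3588. There miR-3588 held 48.0% of the sum of both rows, against 23.0% to 26.3% in EWH libraries and 22.2% to 30.1% in the other control libraries. The sum was 9290 rpm in control 1 and 9122 to 10126 rpm in the other control libraries.

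With both rows added together, which was chosen after the values were seen, the sum averaged 8361 ± 1059 rpm in EWH libraries and 9469 ± 352 rpm in control libraries (SD, n = 6 each). Its log2 fold change was −0.19, with an unadjusted p of 0.0445 and an adjusted p of 0.2001 in limma. MiR-3588 alone had a log2 fold change of −0.37 ± 0.17 (SE), with an adjusted p of 0.219 in limma.

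**Figure D3:**
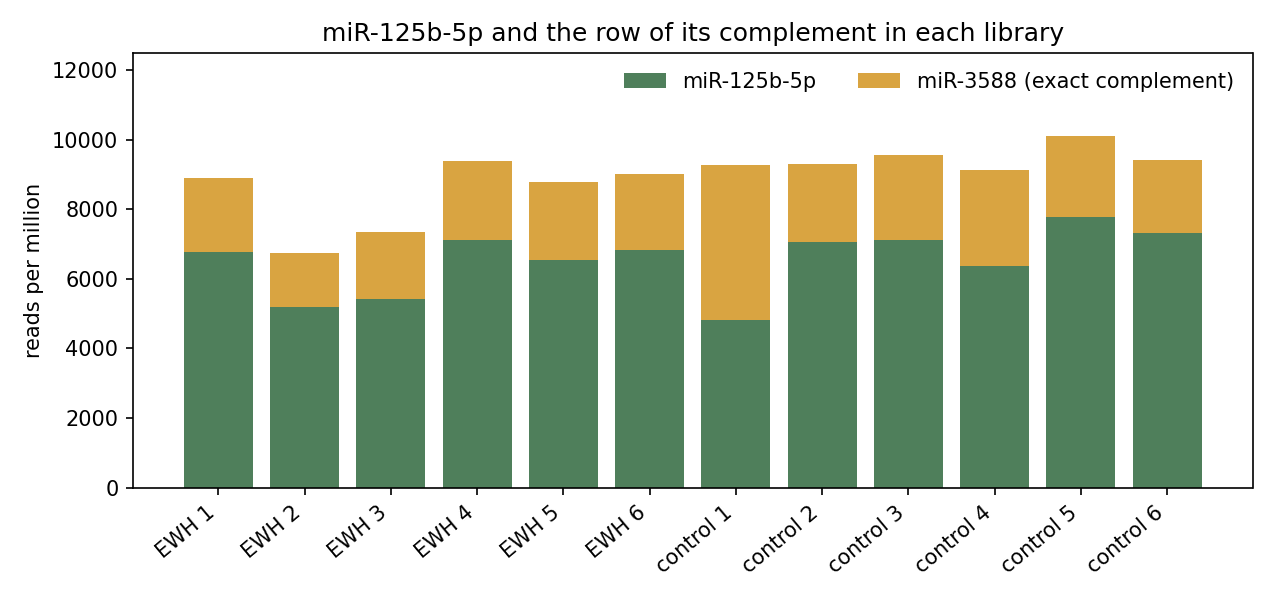
Stacked bars of the levels of miR-125b-5p and its reverse complement miR-3588 in each library, in rpm, with EWH libraries left of control libraries. Control 1 is lowest in miR-125b-5p at 4831 rpm and highest in miR-3588 at 4459 rpm, and its sum of 9290 rpm lies among those of the other control libraries.

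Among the 3p arms, miR-125b-1-3p had the largest difference of any tested member. It was at 138, 175 and 221 rpm in EWH libraries and at 199.7, 213 and 249.9 rpm in control libraries. In 5 of 6 EWH libraries it lay below every control library, and EWH 4 was within the control range. It averaged 177 ± 29.6 rpm in EWH libraries and 216 ± 18.4 rpm in control libraries (SD, n = 6 each). Limma gave a log2 fold change of −0.30 ± 0.12 (SE), with an interval from −0.56 to −0.04. The unadjusted p was 0.0251 and the adjusted p 0.163 in limma, so the difference did not pass the threshold over all tested rows. The unadjusted p was 0.0524, 0.0579, 0.0543 and 0.0566 in limma without EWH 1, EWH 3, EWH 5 and control 2. Of all tested rows, 7.92% were lower in EWH libraries at an unadjusted p under 0.05.

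MiR-125b-2-3p, the matching arm of the other copy, was at 87.2, 94.1 and 122 rpm in EWH libraries and at 86.4, 97.3 and 109.7 rpm in control libraries. Its highest value was that of EWH 4 and the groups overlapped throughout. Limma gave a log2 fold change of −0.03 ± 0.11 (SE), with an adjusted p of 0.872 in limma and an interval from −0.26 to 0.20. Without EWH 4 the log2 fold change was −0.0978, and without EWH 3 and EWH 4 it was −0.0785. The share of miR-125b-1-3p in the 3p reads of both copies was 61.3% to 67.3% in EWH libraries and 67.0% to 69.8% in control libraries, a measure chosen after the values were seen and not tested.

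MiR-99b-3p was at 26.9, 33.4 and 40.3 rpm in EWH libraries and at 31.0, 33.9 and 43.4 rpm in control libraries, with a log2 fold change of −0.04 ± 0.13 (SE). MiR-125a-3p was at 16.3, 22.2 and 25.9 rpm in EWH libraries and at 14.03, 18.4 and 24.6 rpm in control libraries, with a log2 fold change of 0.17 ± 0.16 (SE). The groups overlapped in both, and the adjusted p values in limma were 0.865 and 0.560. Reads of all 3p arms made up 0.494% to 0.595% of the families' reads in EWH libraries and 0.610% to 0.744% in control libraries. These ranges do not overlap, but the share was chosen after the values were seen and not tested. The levels of 1.65% of tested rows did not overlap, which is no background for a share of summed rows. MiR-125b-1-3p contributed most of the 3p reads, and miR-99a-5p most of the families' reads, so the share mixes hairpins. Within hairpins the log2 ratio of 5p to 3p averaged higher in EWH libraries for miR-125b-1 and miR-99b and lower for miR-125b-2 and miR-125a.

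**Figure D4:**
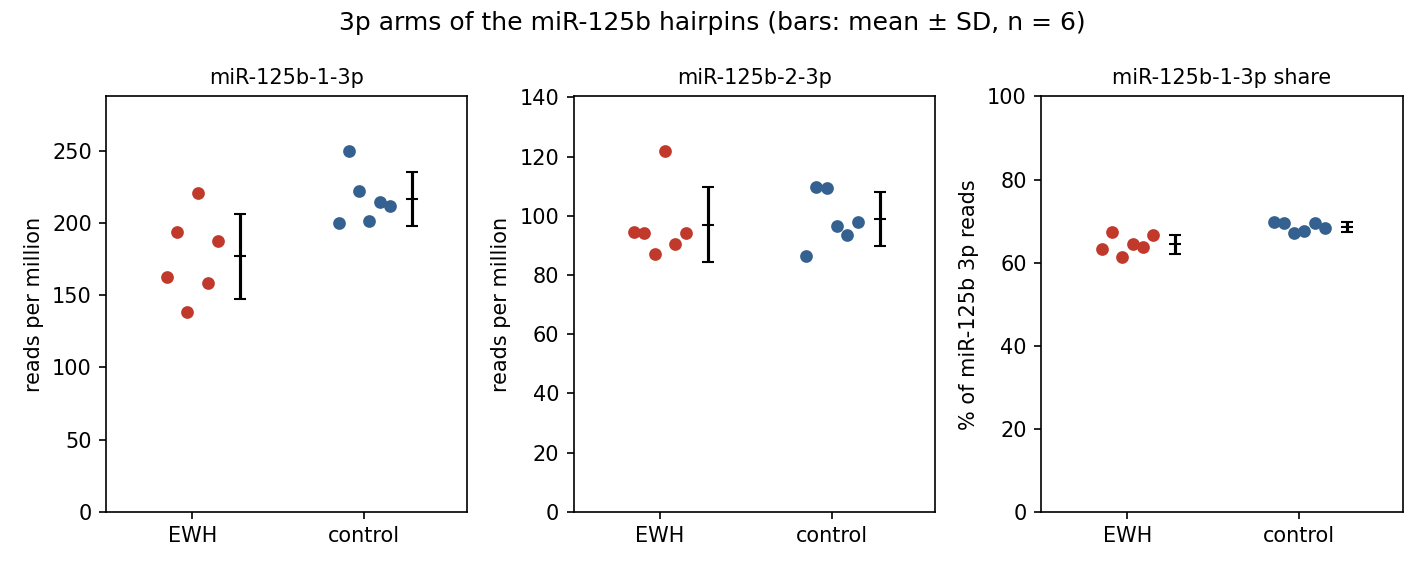
Levels of miR-125b-1-3p and miR-125b-2-3p in rpm and the share of miR-125b-1-3p in their sum in percent, by library, with EWH libraries left of control libraries and bars for the mean ± SD (n = 6 each). MiR-125b-1-3p spans 138 to 221 rpm in EWH libraries and 199.7 to 249.9 rpm in control libraries, while the levels of miR-125b-2-3p overlap throughout.

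The 2 arms of a hairpin come from 1 precursor, so their ratio compares what is kept of each arm. It was fitted over the 73 hairpins with both arms tested. Limma called 0 of these ratios, or 0%, at an adjusted p under 0.05 and 17.8% at an unadjusted p under 0.05, and none of the 4 ratios of the families passed either threshold. The log2 ratio of 5p to 3p for miR-125b-1 averaged 5.16 in EWH libraries and 4.94 in control libraries, a difference of 0.21 with an adjusted p of 0.541. Without EWH 2 the difference was 0.30, with an unadjusted p of 0.0339 and an adjusted p of 0.222 in limma. Without control 1 it was 0.14, and with the reads of miR-3588 added to the 5p arm it was 0.11. For miR-125b-2 it averaged 6.01 and 6.07 in those groups, a difference of −0.06. For miR-99b it averaged 6.21 in EWH libraries and 6.09 in control libraries, a difference of 0.12. For miR-125a the averages were 8.22 and 8.31, a difference of −0.10, which was −0.0152 without control 1. The 5p arm of the miR-125b ratios is shared by both hairpins.

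The 5p arms of the let-7 partners had higher averages in EWH libraries, and none passed the adjusted threshold in limma. Of the 6 tested let-7a, let-7c and let-7e rows of either arm, 4 had a higher and 2 a lower fitted level. Let-7c-1-3p, from the hairpin Mirlet7c1, averaged 2.61 rpm in EWH libraries and 3.25 rpm in control libraries. Its log2 fold change was −0.26, with an adjusted p of 0.330 in limma, and that of let-7e-3p was 0.00374. The log2 ratio of let-7c-5p to let-7c-1-3p was 0.76 higher in EWH libraries. Limma gave it an unadjusted p of 0.00326 and an adjusted p of 0.119. Let-7c-5p was at 21696, 34043 and 35808 rpm in EWH libraries and at 11854, 23557 and 27845 rpm in control libraries. In 4 EWH libraries it exceeded every control library. Its log2 fold change was 0.51 ± 0.21 (SE), with an unadjusted p of 0.0296 and an adjusted p of 0.168 in limma. Without control 1, the lowest library, the log2 fold change was 0.34. Without EWH 3 and EWH 4 it was 0.39, with an unadjusted p of 0.128 in limma. Let-7a-5p had a log2 fold change of 0.33 with an unadjusted p of 0.0432 and an adjusted p of 0.196, and an unadjusted p of 0.124 without EWH 3 and EWH 4. Other hairpins outside these clusters also yield let-7a-5p and let-7c-5p, so their levels, ratios and correlations are not those of the clusters alone. Let-7e-5p had a log2 fold change of 0.32 with an adjusted p of 0.251. DESeq2 on recovered reads called let-7e-5p, with an adjusted p of 0.0382.

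Ratios of miRNAs within a library do not depend on its total, and 10 were compared by an exact permutation test, two-sided, that ran through all 924 assignments of the group labels. None passed after adjustment over the 10. The log2 ratio of miR-99a-5p to miR-100-5p was 2.68, 2.89 and 3.05 (lowest, median and highest) in EWH libraries and 2.58, 2.70 and 2.89 in control libraries. It was above every control library in 3 of 6 EWH libraries. The difference was 0.18, with an exact p of 0.0346 and an adjusted p of 0.271. With 1 library left out in turn the exact p ran from 0.00866 to 0.0714. The log2 ratio of miR-100-5p to let-7a-5p was −2.12, −1.63 and −1.26 in EWH libraries and −1.65, −1.25 and −0.92 in control libraries. All 6 EWH libraries lay below the control median. The difference was −0.39, with an exact p of 0.0541 and an adjusted p of 0.271. With 1 library left out in turn the exact p ran from 0.0303 to 0.11.

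Likewise miR-99a-5p to let-7c-5p, miR-99b-5p to let-7e-5p and miR-125a-5p to let-7e-5p had differences of −0.40, −0.24 and −0.25, with adjusted exact p values of 0.363, 0.372 and 0.363. Without control 1 the first was −0.24 and the third −0.16. The first was −0.52 without EWH 2, with an exact p of 0.0433 and an adjusted p of 0.189. The third was −0.34 without EWH 1, with an exact p of 0.0411 and an adjusted p of 0.137. The second was −0.15 without EWH 3 and EWH 4. Members of 1 cluster were also compared with each other. The log2 ratio of miR-99a-5p to miR-125b-5p averaged 2.60 in EWH libraries and 2.39 in control libraries, a difference of 0.20 with an adjusted exact p of 0.372. With miR-3588 added to miR-125b-5p the difference was 0.30, with an exact p of 0.0346 and an adjusted p of 0.0974. Without EWH 2 it was 0.12, and without EWH 3 and EWH 4 it was 0.13. That of miR-99b-5p to miR-125a-5p averaged −1.38 in EWH libraries and −1.39 in control libraries, and that of miR-100-5p to miR-125b-5p averaged −0.29 and −0.32 in those groups. The ratio of miR-125b-5p to miR-125a-5p averaged −0.08 ± 0.13 in EWH libraries and 0.08 ± 0.44 in control libraries (SD, n = 6 each). All 6 EWH libraries lay below its control median of 0.16, as for miR-100-5p to let-7a-5p. For miR-125b-5p to miR-125a-5p the difference was −0.16, with an exact p of 0.433. Without control 1, where miR-125b-5p was lowest, the difference was −0.32, with an exact p of 0.00649 and an adjusted p of 0.0649. With miR-3588 added it was −0.26, with an exact p of 0.0368 and an adjusted p of 0.0974.

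**Figure D5:**
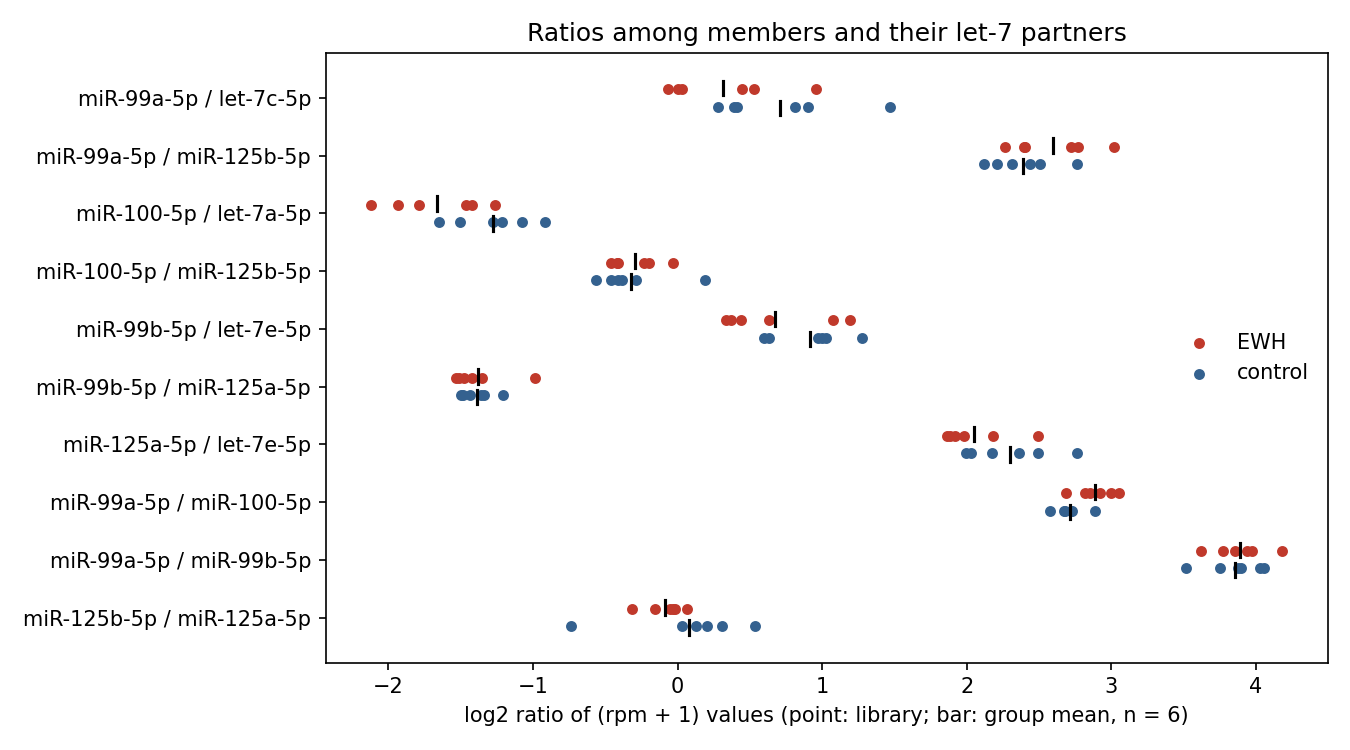
Log2 ratios between members and between members and their let-7 partners in each library, on a log2 scale along the horizontal axis, with EWH libraries above control libraries and vertical bars for group means (n = 6 each). The ratio of miR-100-5p to let-7a-5p has all 6 EWH libraries below the control median of −1.25. The ratio of miR-125b-5p to miR-125a-5p also has all 6 below the control median, of 0.16, and control 1 lies apart there at −0.74.

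The levels of miRNAs that have a hairpin in the same cluster were also correlated across libraries, and none of the 7 pairs passed after adjustment over the pairs. Among them, the highest Pearson r was 0.659 for miR-99b-5p and miR-125a-5p (n = 12, permutation p of 0.0196, adjusted p of 0.137), with a Spearman rho of 0.559 (adjusted p of 0.218). Within groups r was −0.329 in EWH libraries and 0.975 in control libraries (n = 6 each), and without control 1 and control 2 it was 0.158, so the relation rested on those libraries. For miR-100-5p and let-7a-5p r was −0.374 (permutation, adjusted p of 0.543) and rho was −0.622 (adjusted p of 0.218), and without EWH 3 and EWH 4 r was −0.706. In the remaining 5 pairs r lay between 0.0522 and 0.463, with adjusted permutation p values of at least 0.461.

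The miRNAs most like each 5p arm were sought in the whole table. Over the 12 libraries, whose rpm values share the library totals, miR-125b-5p was most like miR-199a-3p (r = 0.821), miR-214-3p (r = 0.821) and miR-3120 (r = 0.798). MiR-125a-5p was most like let-7d-3p (r = 0.808) and miR-100-5p was most like miR-532-5p (r = 0.787). MiR-99a-5p was most like miR-125b-2-3p (r = 0.707), which lies in the same cluster, and miR-99b-5p was most like miR-195-3p (r = 0.811). With miR-125b-2-3p, miR-100-5p from another cluster had a higher r of 0.735, so that likeness was not particular to the cluster. EWH 4 was the highest library for miR-99a-5p, miR-100-5p and miR-125b-2-3p, and r without it was not computed. All r values in this paragraph are descriptions of the highest among 182 candidates for each arm, without a test.

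Relatives outside the families gave no call in limma. MiR-10a-5p, whose hairpin lies in a Hox cluster and which belongs to the same wider group as miR-99/100, was at 19003, 23420 and 26385 rpm in EWH libraries and at 14813, 20911 and 24486 rpm in control libraries. Its adjusted p was 0.468 in limma. MiR-10b-5p averaged 9.84 ± 1.39 rpm in EWH libraries and 7.59 ± 2.45 rpm in control libraries (SD, n = 6 each). It had a log2 fold change of 0.37, with an unadjusted p of 0.0723 and an adjusted p of 0.258 in limma. The log2 ratios of 5p to 3p were higher in EWH libraries by 0.39 for miR-10a and 0.47 for miR-10b. In limma their unadjusted p values were 0.0376 and 0.00927 and their adjusted p values 0.211 and 0.135. MiR-351-5p, which shares the miR-125 seed, averaged 25.9 ± 9.24 rpm in EWH libraries and 26.9 ± 10.9 rpm in control libraries (SD, n = 6 each), with an adjusted p of 0.956 in limma. The groups overlapped in the levels of miR-10a-5p, miR-10b-5p and miR-351-5p.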

How the data were processed

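Small RNA was sequenced from 12 aorta samples, 6 EWH and 6 control. RNA was isolated with Trizol and inserts of 15 to 35 nt were kept, per the labels' protocols. The build was rn6, per the submitters' processing notes. Sources used here do not give the aligner, counter or strand setting. Values deposited by the authors behave as rpm, although the table is named for TPM: dividing by the smallest step gave whole reads for 100% of values within 0.01 read, with the same step for all miRNAs of a library. A fold change is on the log2(rpm + 1) scale, which understates the change of low miRNAs.

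Columns were mapped through the samples' descriptions and none was left over. Rows with at least 1 rpm in at least 6 libraries were compared in R 4.3.3 by two-sided limma 3.58.1 with a mean-variance trend, and p-values were adjusted by Benjamini-Hochberg over all 303 tested rows at a threshold of 0.05. Arm ratios were fitted by limma without that trend, with adjustment over the 73 hairpins. Ratios between miRNAs were tested by exact permutation and correlations with 100000 permutations (scipy 1.17.1). Alternatives were edgeR 4.0.16 and DESeq2 1.42.0 on the recovered reads, other filters, pseudocounts and scalings, a replicate block and libraries left out. The procedures were tested on simulated data. All 30 pairs of libraries within a group differed by more than sampling noise, with a chi-square of at least 118.5 per degree of freedom. The named miRNAs were all members, their let-7 partners, miRNAs sharing a seed, miR-10a and miR-10b, and for each tested 5p arm the tested miRNAs with the highest r, of which not all are printed. MiR-3588 was added after its values were seen. The members and lists were chosen with earlier results of these data known.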

Additional observations from a re-analysis of the deposited data

Results flagged for a closer look

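In 9 of 66 groups of 6 values, 1 library lay far from the others by Dixon's test, which chance does in about 1 of 20 groups. The groups include ratios, shares and sums built from the same levels, so 1 extreme value can be flagged more than once. The count therefore cannot show an excess over chance. Among EWH libraries, EWH 4 held 6070 rpm of miR-100-5p, where the next was 5091 rpm, and 122 rpm of miR-125b-2-3p, where the next was 94.4 rpm. EWH 2 held 5290 rpm of miR-125a-5p, where the next was 6743 rpm, and had a log2 ratio of miR-99b-5p to miR-125a-5p of −0.99, where the next was −1.35. Among control libraries, control 3 held 40391 rpm of miR-99a-5p, where the next was 35138 rpm. Control 1 held 43.4 rpm of miR-99b-3p, where the next was 35.3 rpm, and had a log2 ratio of miR-100-5p to miR-125b-5p of 0.19, where the next was −0.29. Control 1 also held 4459 rpm of miR-3588, where the next was 2746 rpm, and miR-3588 made up 48.0% of its sum with miR-125b-5p there, where the next was 30.1%. Control 1 was also highest in the endothelial marker miR-126a and in the summed leukocyte markers miR-142, miR-150 and miR-223, at 231 rpm. It was lowest in the erythrocyte markers miR-144, miR-451 and miR-486, at 80.4 rpm. Its epithelial markers summed to 609 rpm, below only the 729 rpm of control 6. The part of these cell types in the values above was not tested.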

How the results depend on the processing

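Of 640 values under alternatives, 603 were classed as the same as in the main setting. An effect was so classed if it kept its direction and side of the threshold. A count of rows was so classed if it equalled or lay near the main count. Limma called 0 rows, but 8 with quantile normalization, 1 without EWH 3 and EWH 4, and 0 to 24 with 1 library left out, most without EWH 2. EdgeR called 40 rows and DESeq2 63. Arm ratios had 0 calls, but 3 with a pseudocount of 5 and 0 to 1 with 1 library left out. No member was called under any of these, and the cause of the changes was not tested. The log2 fold change of miR-125b-1-3p was −0.37 to −0.24 over 25 alternatives, with an adjusted p of 0.119 to 0.315 and an unadjusted p under 0.05 in 17.

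Some small differences turned round. MiR-99a-5p was at −0.0751 with quantile normalization. MiR-125b-2-3p was at 0.00992 with median-of-ratios scaling, 0.0168 in edgeR and 0.0105 in DESeq2, and miR-99b-3p at 0.0186 and 0.0102 in those tools. With 1 library left out, miR-125a-5p ranged from −0.00431 to 0.141 and miR-99b-3p from −0.0917 to 0.0229. The ratio of miR-100-5p to miR-125b-5p ranged from −0.0223 to 0.131, that of miR-99b-5p to miR-125a-5p from −0.0725 to 0.0428 and that of miR-99a-5p to miR-99b-5p from −0.0317 to 0.0907. Without EWH 3 and EWH 4, chosen after seeing the data, miR-100-5p to miR-125b-5p was −0.00941 and miR-99a-5p to miR-99b-5p −0.0471. There r was −0.0831 for miR-99a-5p and let-7c-5p, −0.147 for miR-99a-5p and miR-125b-5p, and −0.0821 for miR-100-5p and miR-125b-5p. With complement rows added, also chosen later, r of miR-99a-5p and miR-125b-5p was −0.221, and with values centred on group means that of miR-99b-5p and let-7e-5p was −0.107.

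Replicate numbers did not pair the libraries: r between same-numbered libraries was −0.504 to 0.313, and 1 of 6 matched its own number best. With the replicate block limma called 0 rows, 57 at an unadjusted p under 0.05. Reads carry no molecular identifiers, so counting error does not cover PCR copies.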

Other observations

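Other let-7 partners also have listed reverse complements. MiR-3596a, complementary to let-7a-5p over 22 bases, held 18.5% to 24.0% of the sum of both rows in EWH libraries and 16.7% to 21.5% in control libraries. MiR-3596c, complementary to let-7e-5p over 21 bases, held 8.70% to 9.66% in EWH libraries and 8.01% to 9.94% in control libraries. In limma miR-3596a had a log2 fold change of 0.47, with an unadjusted p of 0.00508 and an adjusted p of 0.128. That of miR-3596c was 0.40, with an unadjusted p of 0.0210 and an adjusted p of 0.163. With the complements added, let-7a-5p was at 0.36 and let-7e-5p at 0.33, with adjusted p values of 0.165 and 0.231 in limma. In control 1 the shares were 19.99% for miR-3596a and 9.94% for miR-3596c, the latter the highest of the control libraries. Among complementary rows elsewhere, control 1 also had the highest control share of miR-3557-3p (36.4%, with miR-378a-5p) and miR-218b (2.46%, with miR-218a-5p). It had the lowest control share of miR-3570 (27.0%) and miR-210-3p (39.2%, with miR-3574). A high share in control 1 was therefore not particular to miR-3588.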
